A study of Mus musculus with 6 samples.

Results

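The V-ATPase is the proton pump that acidifies lysosomes, endosomes and secretory vesicles, and in osteoclasts it acidifies the pit in which bone is dissolved. Its cytosolic V1 sector hydrolyses ATP, and its membrane V0 sector carries the protons across. ATP6AP2, also called the (pro)renin receptor, is an accessory subunit of the pump and also an adaptor that links it to the Wnt receptor complex with LRP6. The 8 genes described here encode the accessory subunits ATP6AP2 and ATP6AP1 and the V0 subunits a1, a2, b, c, d1 and e. They were chosen by symbol among the 17830 genes of the deposited count table, all 8 were present, and all 8 were among the 13484 genes with enough reads to be tested. The question was whether Atp6ap2 moved with its partners in the pump or alone.

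RNA was sequenced from tdTomato-positive cells that grew out of skull bone of mice aged 6 months (male, per the study) and were then sorted by flow cytometry. Control mice were mOCN-Cre;Ai9 (n = 3 libraries), and APPswe mice were TgAPPswe mOCN-Cre;Ai9 (n = 3). All mice therefore carried Cre inserted at the endogenous osteocalcin gene Bglap and the Cre-dependent tdTomato reporter Ai9, and the APPswe mice also carried a human APP transgene with the Swedish mutation, released by the same Cre. Libraries held between 17263757 and 18398392 counted reads, and the counting error of any member in any library was at most 2.97% (coefficient of variation). The labels do not say whether replicates came from separate animals or cultures, so the p-values measure the spread between these libraries, which may be technical. APPswe replicates 2 and 3 differed least, with a chi-square per degree of freedom of 1.57 over all genes, not far above counting error. Other pairs within a group were at 5.95 to 77.2. All tests here counted these 2 libraries as separate replicates.

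The sorted cells were labelled as osteoblasts, and the marker genes went against that label in part. Summed over 13 macrophage markers, levels in CPM (read counts scaled to library depth, with the TMM method) were 18252 to 25041 in control and 12642 to 13609 in APPswe libraries. Lyz2 alone gave 9772 to 16080 and 7148 to 7879 CPM of these sums. For 12 osteoblast markers the sums were 8691 to 11487 and 7964 to 8764 CPM, most of it from Col1a1 and Col1a2. Control replicate 2 stood apart: Bglap was at 0.056 CPM there and at 9.18 and 11.5 CPM in the other control libraries, and 4 Y-linked genes summed to 2 reads against 2257 to 3406 in every other library. The study describes its mice as male, which the near lack of Y-linked reads in control replicate 2 goes against, and the cause was not tested. Results are therefore also given without this library. The groups differed in markers of other cells, counted at an edgeR adjusted p of at most 0.05. At this limit 12.0% of all genes tested were lower and 10.5% higher. For macrophages, 8 of 13 markers were lower and 1 (Aif1) was higher, while Csf1r, Ptprc, Mrc1 and Fcgr1 did not pass. Among osteoclast markers, 5 of 6 tested were higher (sum 143 to 223 CPM in control, 646 to 662 CPM in APPswe). In skeletal muscle, 8 of 8 markers tested were higher (3.64 to 11.6 against 146 to 151 CPM). Endothelial markers were lower in 2 of 5 cases (81.7 to 176 against 21.2 to 23.9 CPM). Of the 12 osteoblast markers, 0 were lower and 2 were higher. Calcr of osteoclasts and Ckm of muscle had too few reads to be tested and were at or near 0 in all libraries. By contrast, the osteoclast marker Acp5 was at 3.71 to 7.11 CPM in control and 187.5 to 208.2 CPM in APPswe libraries. The muscle marker Myog was at 0.113 to 0.281 CPM in control and 9.19 to 9.78 CPM in APPswe libraries. In bulk RNA, fewer cells of a type and less RNA per cell cannot be told apart, and the part of these markers in the results on the pump was not tested.

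The start-site regions of the 4 members that fell, and of 1 that did not, are printed because the members were compared for moving together. Each is the 150 bases before the start site that the RefSeq window uses, on GRCm38.p6, 5′ to 3′ on the strand of the gene, with capitals marking CACGTG (the E-box at the core of the element bound by TFEB, TFE3 and MITF) and CCAAT or its reverse complement ATTGG. The stretch of Atp6v0a1 precedes a start site that lies inside the annotated gene, downstream of its first base, so it is not upstream of the gene as a whole. The start site used for Atp6v0b also lies just inside its gene. On the minus strand that gene begins at 117887333, and the stretch runs to 117887330, so its last bases are within the gene. The positions are chrX:12587609-12587758 for Atp6ap2 and chrX:74296947-74297096 for Atp6ap1, both on the plus strand, chr11:101010248-101010397 for Atp6v0a1 on the plus strand, chr8:105566065-105566214 for Atp6v0d1 on the minus strand, and chr4:117887330-117887479 for Atp6v0b on the minus strand.
Atp6ap2: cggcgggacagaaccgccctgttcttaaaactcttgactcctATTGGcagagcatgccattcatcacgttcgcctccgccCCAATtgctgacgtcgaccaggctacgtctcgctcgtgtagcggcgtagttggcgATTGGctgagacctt
Atp6ap1: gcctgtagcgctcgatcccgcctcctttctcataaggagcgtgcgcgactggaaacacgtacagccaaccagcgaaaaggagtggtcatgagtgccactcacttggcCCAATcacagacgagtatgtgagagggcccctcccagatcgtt
Atp6v0a1: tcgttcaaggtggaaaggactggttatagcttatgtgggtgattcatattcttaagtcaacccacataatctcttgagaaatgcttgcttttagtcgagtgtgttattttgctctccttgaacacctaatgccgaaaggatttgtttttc
Atp6v0d1: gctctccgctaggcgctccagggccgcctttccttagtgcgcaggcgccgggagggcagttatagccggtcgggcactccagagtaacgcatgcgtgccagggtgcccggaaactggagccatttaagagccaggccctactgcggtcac
Atp6v0b: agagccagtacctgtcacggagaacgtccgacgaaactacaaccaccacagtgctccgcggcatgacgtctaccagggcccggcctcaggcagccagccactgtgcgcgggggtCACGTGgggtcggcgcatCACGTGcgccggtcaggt

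RefSeq windows of 300 bases (250 before and 50 after the start) were at hand for 7 of the 8 members, Atp6v0a2 being the exception, and both strands were searched. CACGTG was present in 3 of the 7 members: in Atp6v0b at -36 and -18 from the start, in Atp6v0d1 at -3, where it runs across the start and out of the printed stretch, and in Atp6v0e at 4. It was present in 11.6% of the 10731 tested genes with a window and in 7.15% of all 32851 windows. CCAAT or ATTGG was present in 3 of 7 members, with 3 copies in Atp6ap2 (-108, -70 and -15), 1 in Atp6ap1 (-43) and 1 in Atp6v0b (-206, upstream of the printed stretch), against 43.1% of tested genes and 37.4% of all windows. The GC box GGGCGG or CCGCCC was present in 6 of 7 members, against 67.4% of tested genes and 35.7% of all windows, and the copy at -75 in Atp6ap2 overlaps the CCAAT at -70. Among the 4 members that fell, no motif of the 3 was present in every window. These matches describe letters and not bound sites.

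Atp6ap2 was lower in APPswe than in control libraries, and it was not the only member to fall. With edgeR's quasi-likelihood test and Benjamini-Hochberg adjustment over all genes tested, 4 of the 8 members passed at an adjusted p of at most 0.05, all lower: Atp6ap2, Atp6ap1, Atp6v0a1 and Atp6v0d1. In the same test, 12.0% of all genes passed as lower and 22.5% in either direction. The median log2 fold change of the 8 members was -0.34, against 0.00 (-0.0033) over all genes tested. None of the 8 reached the study's second limit, an absolute log2 fold change of 1, which 7.34% of all genes met together with the adjusted p. In 5 of the 8 members no APPswe library reached the lowest control library, against 22.2% of all genes.

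**Figure D1:**
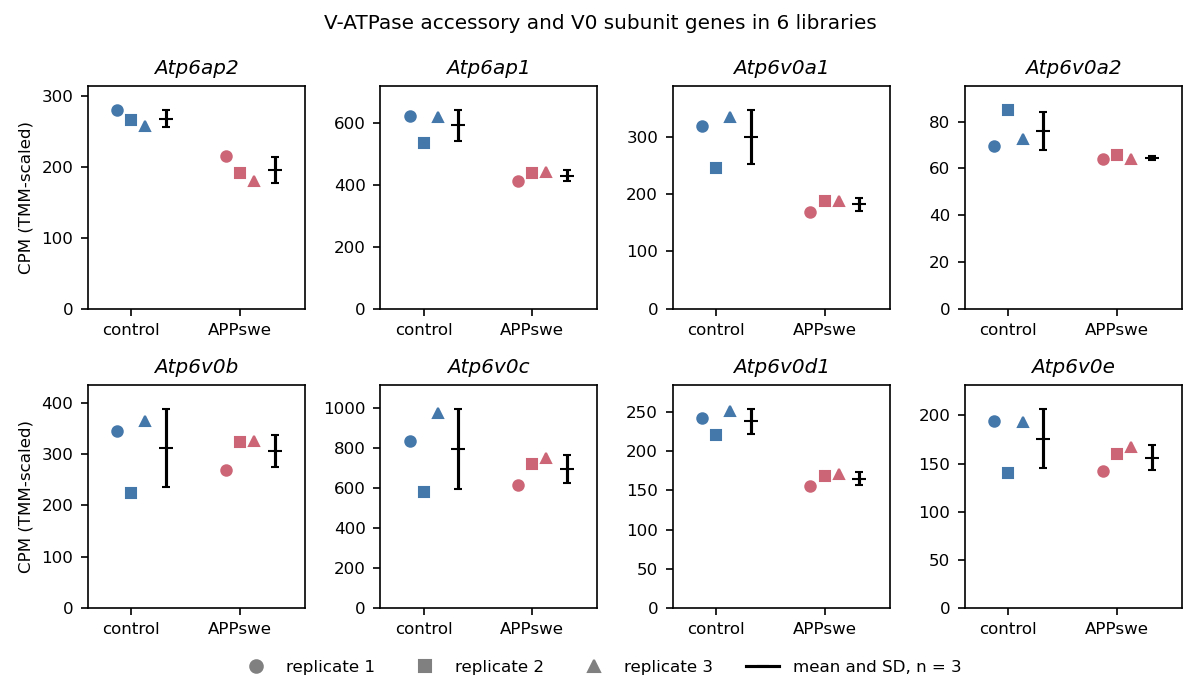
Level of each member in CPM (vertical axes, each from 0) in the 3 control (blue) and 3 APPswe (red) libraries, with symbols for the replicate number and bars for the mean and SD. For Atp6ap2, Atp6ap1, Atp6v0a1, Atp6v0a2 and Atp6v0d1 the groups do not overlap, and control replicate 2 is the lowest control library for 6 of the 7 partners of Atp6ap2.

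Atp6ap2 lies on chromosome X (12587759 to 12617051, GRCm38.p6; gene ID 70495). It was at 280.5, 265.5 and 257 CPM in control replicates 1, 2 and 3 and at 216, 191.5 and 179.8 CPM in APPswe replicates 1, 2 and 3. Every APPswe library was below every control library. Means were 268 ± 11.8 and 196 ± 18.3 CPM (SD, n = 3 each), so APPswe stood at 0.731 of the control level, or -0.45 as a log2 fold change (SE 0.09; edgeR quasi-likelihood adjusted p = 0.0164). Without control replicate 2 the log2 fold change was -0.46 and the edgeR adjusted p 0.000964. The call was lost when control replicate 1 (edgeR adjusted p = 0.0535), APPswe replicate 2 (0.0887) or APPswe replicate 3 (0.0847) was left out.

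Atp6ap1 encodes Ac45, the other accessory subunit, which helps assemble the V0 sector; it is also on chromosome X (74297097 to 74304721; gene ID 54411). Its levels were 624, 535 and 619.9 CPM in control and 412, 439 and 442.5 CPM in APPswe libraries, with no overlap. Means of 593 ± 50.6 and 431 ± 16.7 CPM (SD, n = 3 each) gave -0.46 as the log2 fold change (SE 0.09; edgeR adjusted p = 0.0145). The size was that of Atp6ap2 within the errors of both. Its call was lost when any 1 of the APPswe libraries was left out (edgeR adjusted p = 0.0643, 0.0735 and 0.0681 without replicates 1, 2 and 3).

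Atp6v0a1 encodes a1, an isoform of the large membrane subunit that lines the path of the protons and directs the pump to its membrane (chromosome 11, 101009422 to 101063719; gene ID 11975). It was at 319, 246 and 335 CPM in control and at 169.6, 188 and 189 CPM in APPswe libraries. This was the lowest fold change among the members, -0.72 on the log2 scale (SE 0.13; edgeR adjusted p = 0.0106), from 300.1 ± 47.3 to 182 ± 10.9 CPM (SD, n = 3 each). The call was lost without APPswe replicate 1, 2 or 3 (edgeR adjusted p = 0.0547, 0.0537 and 0.0533). Atp6v0d1 encodes d1, which joins the rotating ring of V0 to the stalk of V1 (chromosome 8, 105524461 to 105566064; gene ID 11972). Its control libraries were at 243, 220.2 and 250.5 CPM and its APPswe libraries at 156, 169 and 170.2 CPM. The log2 fold change was -0.53 (SE 0.08; edgeR adjusted p = 0.00669), from 238 ± 15.8 to 165 ± 7.89 CPM (SD, n = 3 each), and it was the only member that passed whichever library was left out (edgeR adjusted p between 3.2e-05 and 0.0438).

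The proteolipid ring that carries the protons is built from subunits c and b (also called c''), and neither gene passed with all libraries. Atp6v0c (chromosome 17, 24163865 to 24169678; gene ID 11984) was at 832, 579 and 972 CPM in control and 615.5, 720.4 and 748 CPM in APPswe libraries, or -0.19 as a log2 fold change (SE 0.19; edgeR adjusted p = 0.501). Pseudogene copies of Atp6v0c exist in the mouse genome, so reads may be split with them and its counts are uncertain to that extent. Atp6v0b (chromosome 4, 117884330 to 117887333; gene ID 114143) was at 344, 224 and 365 CPM in control and 269.5, 323 and 325 CPM in APPswe libraries, with a log2 value of -0.02 (SE 0.19; edgeR adjusted p = 0.939) whose sign turned without TMM scaling (0.05). For both, the lowest of all 6 libraries was control replicate 2. The same held for Atp6v0e, a small membrane subunit (chromosome 17, 26676396 to 26699647; gene ID 11974), with 194, 140.2 and 193 CPM in control and 142, 159.7 and 167 CPM in APPswe libraries and -0.17 on the log2 scale (SE 0.14; edgeR adjusted p = 0.426).

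Atp6v0a2, the a2 isoform found in the Golgi and endosomes (chromosome 5, 124629052 to 124724455; gene ID 21871), was the least abundant member. Its control libraries were at 69.6, 85.0 and 72.6 CPM and its APPswe libraries at 63.9, 65.6 and 63.9 CPM. The groups did not overlap, but the log2 fold change of -0.23 (SE 0.09) did not pass (edgeR adjusted p = 0.117). In contrast to the other partners, it was highest in control replicate 2.

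Without control replicate 2, 6 of the 8 members passed as lower, beside 25.0% of the 13753 genes then tested. The 2 that joined were Atp6v0c, with -0.37 on the log2 scale (edgeR adjusted p = 0.00614), and Atp6v0e, with -0.31 (edgeR adjusted p = 0.00636). Atp6v0b was then at -0.21 (edgeR adjusted p = 0.0587) and Atp6v0a2 at -0.14 (edgeR adjusted p = 0.108). Atp6ap1, Atp6v0a1 and Atp6v0d1 were at -0.53, -0.84 and -0.58. Leaving out an APPswe library instead left fewer calls: 1 member (Atp6v0d1) passed without replicate 2 or 3, and 2 (Atp6ap2 and Atp6v0d1) without replicate 1. Calls dropped over all genes as well: 698, 536 and 544 passed as lower without APPswe replicates 1, 2 and 3, against 1622 with all libraries.

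The question of moving together was also put within each library, as the log2 ratio of the counts of Atp6ap2 to those of a partner. The ratio to Atp6ap1 was -1.15, -1.01 and -1.27 in control and -0.93, -1.20 and -1.30 in APPswe libraries, a difference in means (APPswe minus control) of 0.00 (0.0017, SE 0.13). To Atp6v0d1 the difference was 0.07 (SE 0.14), and to Atp6v0a1 0.25 (SE 0.19). Against the other 4 it was negative, at -0.23 (SE 0.13) for Atp6v0a2, -0.46 (SE 0.28) for Atp6v0b, -0.29 (SE 0.28) for Atp6v0c and -0.30 (SE 0.21) for Atp6v0e. The groups overlapped for all 7 partners, whereas the ratio of Atp6ap2 to another tested gene did not overlap between groups for 61.7% of 13483 genes (lower in APPswe for 57.1%, higher for 4.59%). Two-sided exact permutation tests gave p between 0.2 and 1 (0.525 to 1 after Benjamini-Hochberg adjustment over the 7 ratios); with 3 against 3 libraries the smallest p possible is 0.1, so this test could not pass, and an unequal change of the size of these SEs was not detectable. Without control replicate 2 the ratio to Atp6v0a1 (difference 0.38) and to Atp6v0a2 (-0.32) no longer overlapped between groups, and the differences to Atp6v0b, Atp6v0c and Atp6v0e came closer to 0, at -0.24, -0.08 and -0.15.

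**Figure D2:**
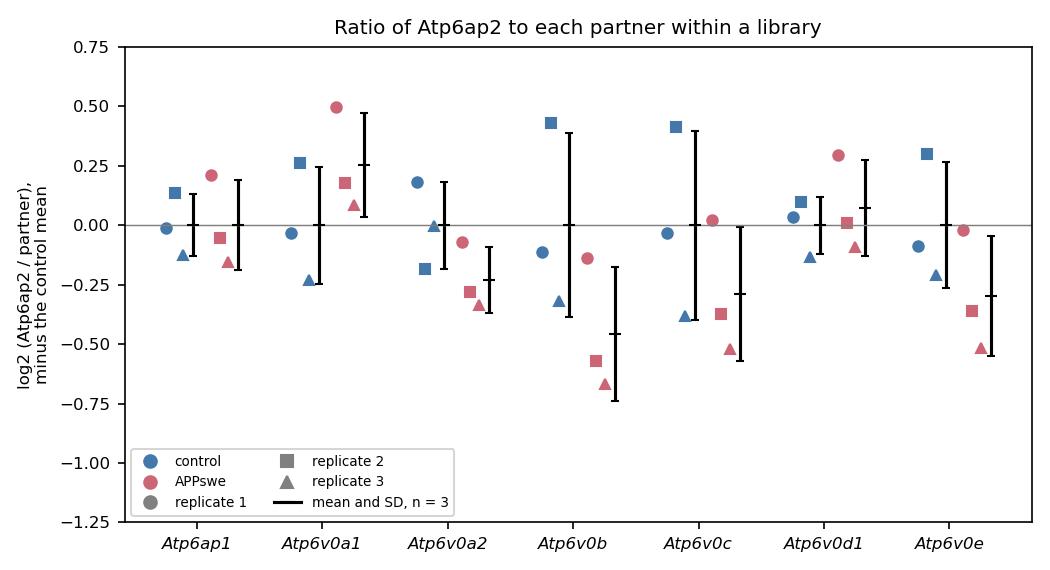
Log2 ratio of Atp6ap2 to each partner in every library, minus the control mean of that ratio (vertical axis), for control (blue) and APPswe (red) libraries, with the mean and SD. The groups overlap for every partner, and the APPswe mean lies closest to 0 for Atp6ap1 (0.0017) and farthest from it for Atp6v0b (-0.46).

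Inside the groups the libraries were ordered differently for Atp6ap2 than for most partners. Among the APPswe libraries it was highest in replicate 1 and lowest in replicate 3, while 6 of the 7 partners were lowest in replicate 1 and highest in replicate 3. The exception was Atp6v0a2, which was lowest in replicate 3 and highest in replicate 2. Among control libraries, 6 of the 7 partners were lowest in replicate 2, where Atp6ap2 held the middle place. APPswe replicates 3 and 2 lay within counting error of each other for 4 partners. These were Atp6ap1 (442.5 and 438.6 CPM), Atp6v0a1 (188.7 and 188.1), Atp6v0b (324.8 and 323.0) and Atp6v0d1 (170.2 and 168.6). The share of all genes with such an order was not worked out. With 3 libraries a group these orders are descriptions only.

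Likeness to Atp6ap2 over the 6 libraries was measured as the root mean square difference of log2 CPM, each gene centred on its own mean, among the 9898 genes with a mean of at least 10 CPM. Atp6ap1 was the partner most like it (0.132, rank 481), followed by Atp6v0d1 (0.140, rank 605) and Atp6v0a2 (0.175, rank 1247). Atp6v0a1 (0.228), Atp6v0e (0.259), Atp6v0c (0.316) and Atp6v0b (0.359) came after, the median gene being at 0.298. The 5 genes with the nearest pattern were Prkx, a protein kinase gene on chromosome X (0.0299), Rabep1, which encodes the endosomal RAB5 effector rabaptin (0.0319), Plcl2 (0.0461), Dab2, an endocytic adaptor (0.0463), and 1700047I17Rik2 (0.0474). Their log2 fold changes were between -0.54 and -0.43, which the measure itself fixes near that of Atp6ap2.

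On the per-length scale of the deposited FPKM (fragments scaled to gene length and library depth), the members differed far more from one another than between groups. In control libraries Atp6v0c stood at 848 ± 209.9 FPKM, Atp6v0b at 397 ± 95.4, Atp6v0e at 317 ± 55.8 and Atp6ap1 at 299 ± 24.8 FPKM (SD, n = 3 each). Below them were Atp6v0d1 at 166 ± 10.4, Atp6ap2 at 124 ± 6.21, Atp6v0a1 at 78.7 ± 12.0 and Atp6v0a2 at 14.5 ± 1.61 FPKM. The neighbours Atp6v0b and Atp6v0e, and Atp6v0e and Atp6ap1, overlapped in control libraries. The same order held in APPswe libraries, from 782 ± 69.7 FPKM for Atp6v0c to 95.2 ± 9.76 for Atp6ap2 and 12.99 ± 0.195 for Atp6v0a2, and no neighbours overlapped there.

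Subunits a, d and e each have alternative genes, and the shares of Atp6v0a1, Tcirg1, Atp6v0d1 and Atp6v0d2 did not overlap between the groups. In CPM, 22.2% of all genes tested were without overlap as lower and 22.8% as higher. No such background was worked out for shares. Of the summed FPKM of the a genes, Atp6v0a1 gave 33.4%, 29.2% and 32.9% in control and 23.4%, 22.8% and 23.0% in APPswe libraries. Tcirg1, the a3 isoform of lysosomes and osteoclasts, gave 61.1%, 63.5% and 61.9% in control and 70.1%, 71.2% and 71.2% in APPswe libraries. Neither share overlapped between groups, with changes of -8.76 and 8.72 percentage points. These 2 shares make up nearly the whole sum, so they are close to complements of one another. The level of Tcirg1 itself was 152.9 ± 11.5 FPKM in control and 155.0 ± 10.6 in APPswe libraries, while Atp6v0a1 was at 78.7 ± 12.0 and 50.4 ± 2.41 FPKM (SD, n = 3 each). The share of Atp6v0a2 was 5.97 ± 1.21% and 5.96 ± 0.38% (SD, n = 3 each), and that of Atp6v0a4, the kidney isoform, was at most 0.133% in any library. Atp6v0a4 had 3 to 16 reads a library. Its groups were parted only by 0.0829% in control replicate 3 and 0.0835% in APPswe replicate 1.

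Of the d genes, the share of Atp6v0d2, the isoform typical of osteoclasts, was 14.5%, 3.96% and 12.5% in control and 23.5%, 20.0% and 20.9% in APPswe libraries, a difference of the means of 11.1 points (7.96 without control replicate 2). Atp6v0d1 gave the rest. Atp6v0e gave 97.7 ± 0.459% and 98.3 ± 0.0168% of its pair with Atp6v0e2. The shares of the d pair, and those of the e pair, are complements of one another. For the shares whose groups did not overlap, the exact permutation test gave the smallest p it can reach, 0.1 (0.114 after adjustment over 8 shares), so none could pass. In CPM the alternative genes themselves did not pass edgeR's test: the log2 fold change was -0.05 for Tcirg1 (SE 0.10, adjusted p = 0.725), 0.66 for Atp6v0d2 (SE 0.48, adjusted p = 0.358), 0.66 for Atp6v0a4 (SE 0.51, adjusted p = 0.389) and -0.61 for Atp6v0e2 (SE 0.28, adjusted p = 0.16). Atp6v0d2 was at 66.5, 15.1 and 58.1 CPM in control and 78.3, 68.5 and 73.2 CPM in APPswe libraries, each APPswe value above each control value, as in 22.8% of all genes. Without control replicate 2, Atp6v0d2 passed as higher (0.24, edgeR adjusted p = 0.0395) and Atp6v0e2 as lower (-0.87, edgeR adjusted p = 0.000134). The osteoclast markers given above were higher in the same APPswe libraries, and their part in these shares was not tested.

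**Figure D3:**
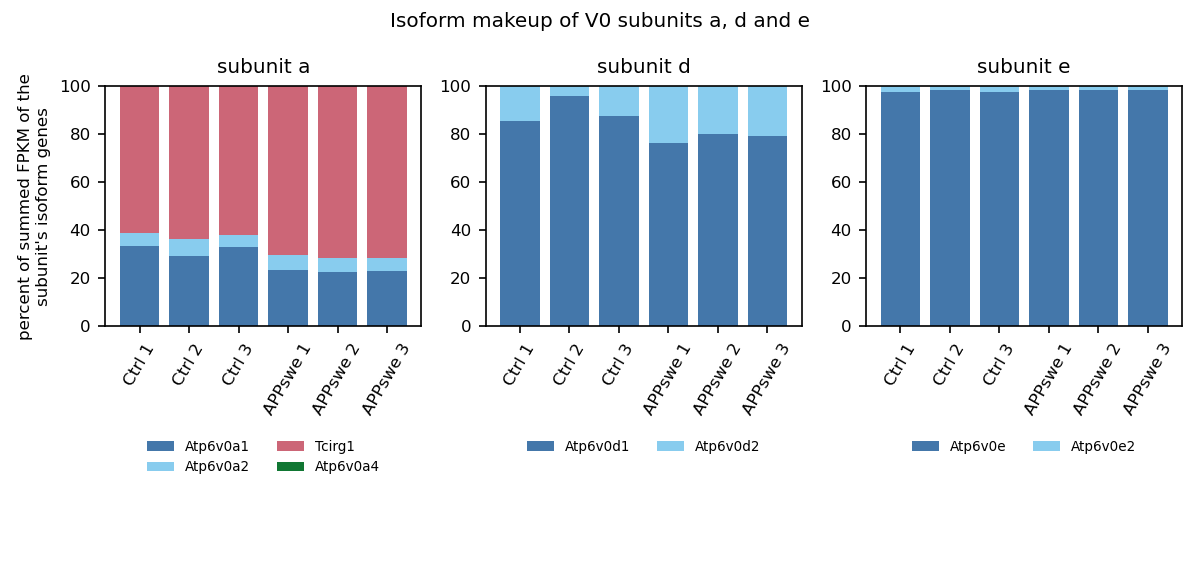
Share of each isoform gene in the summed FPKM of subunits a, d and e (vertical axis, percent) in each library (Ctrl, control). Tcirg1 takes 61.1% to 63.5% of subunit a in control and 70.1% to 71.2% in APPswe libraries, and Atp6v0d2 takes 3.96% to 14.5% and 20.0% to 23.5% of subunit d. Atp6v0a4 is too low to be seen.

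In the V1 sector, 1 of 9 subunit genes tested passed, as lower, and 0 as higher, beside 12.0% and 10.5% of all genes, with a median log2 fold change of -0.24. Of the 13 genes listed, Atp6v1b1 and Atp6v1c2 had too few reads to be tested, and Atp6v1e2 and Atp6v1g3 were not analysed here. The gene that passed was Atp6v1h, which encodes a regulatory subunit, at 151 ± 25.9 CPM in control and 106 ± 6.34 CPM in APPswe libraries (SD, n = 3 each; log2 fold change -0.51, SE 0.13, edgeR adjusted p = 0.0359). Its call was lost in every fit that left out a library other than control replicate 2 (edgeR adjusted p between 0.0862 and 0.139). At the other end was Atp6v1g2, at 0.11 (SE 0.26, edgeR adjusted p = 0.792). In the fit without control replicate 2, 6 of the 9 passed, all lower, beside 25.0% of all genes then tested.

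Assembly factors moved in both directions, with 2 of 8 passing as lower and 2 as higher, beside 12.0% and 10.5% of all genes. Dmxl2, a rabconnectin that helps V1 and V0 join, rose from 22.9 ± 6.48 to 63.2 ± 3.82 CPM (SD, n = 3 each; log2 fold change 1.47, SE 0.20, edgeR adjusted p = 0.00395). Its partner Wdr7 fell from 61.9 ± 10.2 to 39.2 ± 3.73 CPM (log2 fold change -0.66, SE 0.14, edgeR adjusted p = 0.0179). TMEM199 and CCDC115 act together in V0 assembly, and here Tmem199 fell (-0.52, SE 0.11, edgeR adjusted p = 0.0202) while Ccdc115 rose (0.30, SE 0.07, edgeR adjusted p = 0.0277). The call of Wdr7 was lost without APPswe replicate 2 (edgeR adjusted p = 0.0887) or 3 (0.0872), and those of Tmem199 and Ccdc115 without any library but control replicate 2 (edgeR adjusted p between 0.0596 and 0.125), while Dmxl2 passed in all of these fits (edgeR adjusted p at most 0.0284). With control replicate 2 left out, 3 of the 8 passed as lower and 2 as higher, beside 25.0% and 23.3% of all genes then tested.

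**Figure D4:**
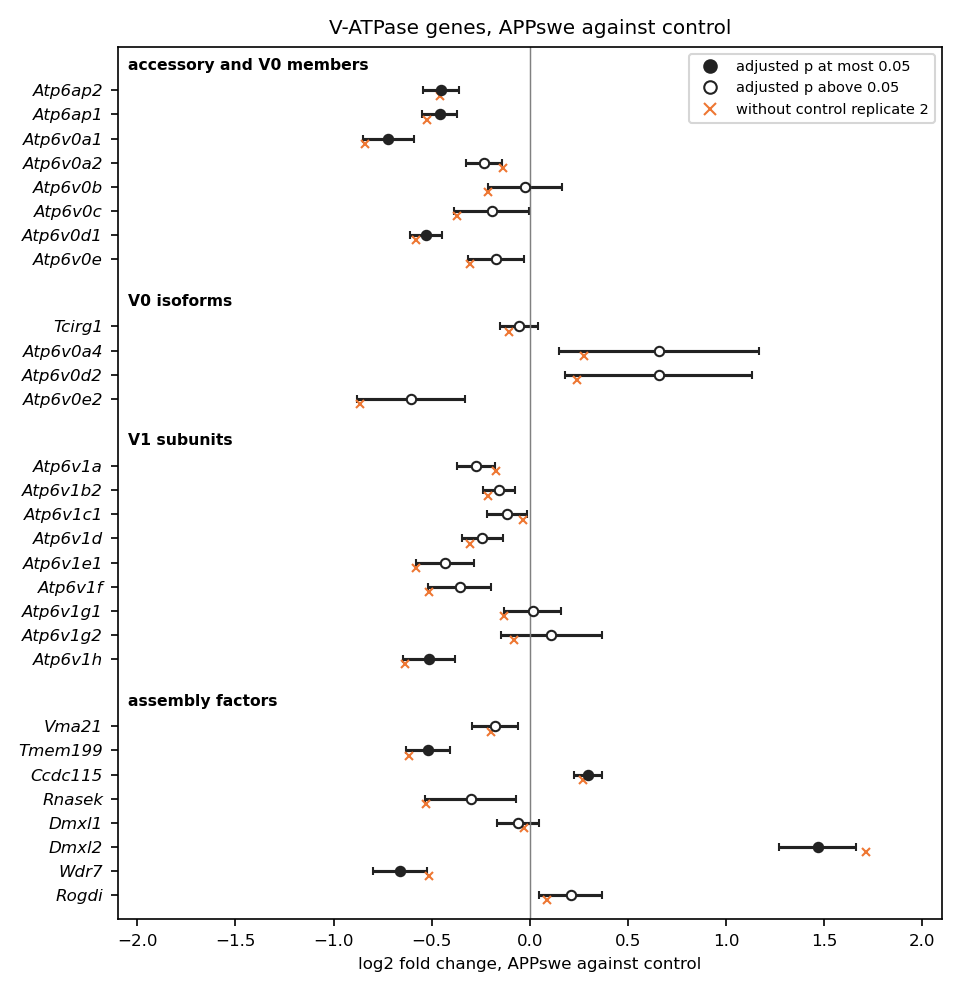
Log2 fold change, APPswe against control (horizontal axis), of the members and of the other V-ATPase genes tested, with bars for the SE, filled points for an adjusted p of at most 0.05 and crosses for the value without control replicate 2. Members that pass lie between -0.72 (Atp6v0a1) and -0.45 (Atp6ap2), and Dmxl2 at 1.47 lies farthest from 0.

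Among 7 genes tested for partners and processing of ATP6AP2, 1 passed, as higher, beside 10.5% of all genes. It was Lrp6, the Wnt co-receptor, at 81.9, 58.2 and 87.3 CPM in control and 121.5, 120.8 and 116 CPM in APPswe libraries, the opposite direction to Atp6ap2 (log2 fold change 0.66, SE 0.15, edgeR adjusted p = 0.0241). Its call was lost without control replicate 1 (edgeR adjusted p = 0.0507) or APPswe replicate 1, 2 or 3 (0.0854, 0.0918 and 0.0853). Agt, which encodes angiotensinogen, had the most negative value, -1.74 (SE 0.96, edgeR adjusted p = 0.234), with 0.169 CPM in control replicate 2 and 6.29 and 6.72 CPM in the other control libraries. Furin and Mbtps1, which encode proteases that cleave ATP6AP2, had log2 fold changes of -0.47 (SE 0.16, edgeR adjusted p = 0.074) and -0.11 (SE 0.09, edgeR adjusted p = 0.439). When control replicate 2 was left out, 5 of the 7 passed, beside 25.0% of all genes lower and 23.3% higher: Agt (-2.31, edgeR adjusted p = 3.21e-06), Furin (-0.37, edgeR adjusted p = 0.0333) and Lrp5, another Wnt co-receptor (-0.36, edgeR adjusted p = 0.0259), were lower, and Lrp6 (0.50, edgeR adjusted p = 0.000118) and Adam19, a membrane protease (0.60, edgeR adjusted p = 4.54e-05), were higher. The gene for renin was not analysed here.

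Several genes for other lysosomal proteins fell as well. Of 11 reference genes, which included the transcription factors Tfeb, Tfe3 and Mitf, 6 passed as lower and 0 as higher. Over all genes tested, 12.0% passed as lower and 10.5% as higher. Without control replicate 2 the counts were 7 and 0, beside 25.0% and 23.3% of all genes then tested. The median log2 fold change of the reference genes was -0.42 beside the members' -0.34. Ctsd, the protease cathepsin D, fell from 11030 ± 1122 to 4497 ± 297 CPM (SD, n = 3 each; log2 fold change -1.29, SE 0.11, edgeR adjusted p = 0.000893), more than any member. Tfeb was at the other end, with 0.19 (SE 0.11, edgeR adjusted p = 0.26). The macrophage marker sums given above, most of them from Lyz2, were lower in the same libraries, as were 4 members of the pump. Whether the change in markers accounts for any of these values was not tested.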

How the data were processed

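The authors sorted tdTomato-positive cells, kept RNA that met their integrity limit and had it sequenced on the DNBseq platform. They deposited raw read counts per gene and, separately, FPKM per gene rounded to 2 decimals. The build in the submitters' processing notes is GRCm38, and the aligner and counter are not given in the sources used here. The deposited FPKM table also holds 2 columns of the authors' own comparison (log2 fold change and p-value), which were not used.

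Counts of 6 libraries (3 control, 3 APPswe, grouped by label) were fitted without covariates by edgeR 4.0.16 (R 4.3.3; filterByExpr, TMM scaling, glmQLFit and glmQLFTest, Benjamini-Hochberg adjustment over 13484 genes, limit 0.05), which was tested on simulated data. There it passed 81 of 97 genes with a true absolute log2 change of 2, but 1 of 98 with a change of 0.5. Of 13178 unchanged genes, 8 passed. Only those 97 and 98 genes were changed among the 13373 fitted there, whereas 22.5% of genes passed in these data. The adjusted limit was therefore stricter in the simulation, and its counts do not give the share of changes found in these data. A member that did not pass may still have changed. The study's limits were an adjusted p of 0.05 and an absolute log2 fold change of 1. Counts as deposited, plus 0.5, gave the ratios; FPKM gave levels and isoform shares (blank FPKM, all of genes with no reads, read as 0). For likeness, 0.1 was added to CPM. Exact permutation tests (scipy 1.17.1) were two-sided. DESeq2 1.42.0 and limma 3.58.1 on log2(FPKM + 1) served as alternatives. Sequences and coordinates are from RefSeq (GRCm38.p6), matched by the gene ID of the count table.

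The members and gene lists were chosen with earlier results of these data known. Named were all 8 members, all V0 isoform genes, from each list the tested genes with the most positive and most negative fold change, and the 5 genes most like Atp6ap2; the other genes named from lists were chosen after their values were seen.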

Additional observations from a re-analysis of the deposited data

How the results depend on the processing

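Under the alternatives, 286 recomputed values kept their direction and their side of the limit, or moved by less than the spread between replicates; 37 moved further, 15 turned sign, 9 lost a call and 2 gained one. Atp6ap2, Atp6ap1, Atp6v0a1 and Atp6v0d1, and no other member, passed as lower with DESeq2, with DESeq2 size factors, without TMM, without a filter, with 10 counts in every library, with limma on FPKM (added 1 or 0.1, or no filter), with a term for how libraries were named, and with the replicate number as a block. Leaving out 1 library at a time, 1 to 6 members passed, and the log2 fold change lay between -0.53 and -0.39 for Atp6ap2, -0.53 and -0.42 for Atp6ap1, -0.84 and -0.64 for Atp6v0a1, -0.58 and -0.49 for Atp6v0d1, -0.29 and -0.14 for Atp6v0a2, -0.37 and -0.027 for Atp6v0c, -0.31 and -0.10 for Atp6v0e, and -0.21 and 0.10 for Atp6v0b.

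The sign of Atp6v0b turned without TMM (0.047), with limma on log2(FPKM + 1) (0.062), with 0.1 added (0.062), without its filter (0.062) and with the replicate block (0.00082), always far from the limit. Over all genes, 1622 passed as lower and 1414 as higher, against 1053, 1064 and 1003 lower with the 3 limma fits, 933 higher with the replicate block, and 536 to 3438 lower and 480 to 3199 higher with 1 library left out. Of the V1, V0 isoform and assembly genes, 3 passed as lower and 2 as higher, against 1 lower with limma and no filter, 1 higher with the replicate block, and 0 to 10 lower and 1 to 3 higher with 1 library left out. A fit with 1 library left out also has fewer libraries. Calls over all genes rose without control replicate 2 (3438 lower, 3199 higher) and dropped without any other library. The cause of these shifts was not tested.

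With 1 library left out, the group difference in the log2 ratio of Atp6ap2 ranged from -0.10 to 0.080 for Atp6ap1, from -0.041 to 0.15 for Atp6v0d1, from 0.13 to 0.38 for Atp6v0a1, from -0.32 to -0.14 for Atp6v0a2, from -0.62 to -0.24 for Atp6v0b, from -0.48 to -0.08 for Atp6v0c and from -0.44 to -0.15 for Atp6v0e, and that in the share of Atp6v0a2 from -0.399 to 0.685 points. Without control replicate 2 the ranks by likeness to Atp6ap2 became 819 for Atp6ap1, 1228 for Atp6v0d1, 1937 for Atp6v0e, 2204 for Atp6v0a2, 2931 for Atp6v0c, 3318 for Atp6v0b and 3847 for Atp6v0a1, which was then the partner least like it. Same-numbered control and APPswe libraries had correlations of their deviations from the group means of 0.07, -0.04 and 0.16, so the numbers were not taken as pairs. Library names come in 2 styles, which no label calls a batch; within them, APPswe over control for Atp6ap2 was -0.34 and -0.47 on the log2 scale.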

Other observations

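Summed over the 8 members, control libraries held 2295 to 3065 CPM and APPswe libraries 2044 to 2285 CPM, and summed over the V1 genes 1597 to 1830 and 1458 to 1493 CPM. Neither sum overlapped between the groups, although the members' sum in control replicate 2, the lowest control value, lay close to the highest APPswe library.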
